A study of Mus musculus with 27 samples.

Results

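The calcium handling genes of the muscle fibre were followed through injury and repair. The set holds 10 genes, which are Cacna1s, Ryr1, Trdn, Jph1, Casq1, Casq2, Pvalb, Atp2a1, Atp2a2 and Sln, and its members were taken by gene name from the deposited expression tables. All 10 were found once in each table, among 55852 entries in the table of injured muscle and 55677 entries in the table that holds the control muscle. All 10 also passed the filter on low values used for testing.

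The series holds 27 RNA-seq libraries of mouse muscle. In 24 of them the muscle had been injured with cardiotoxin (CTX, a snake venom toxin that destroys fibres and leaves the tissue able to regrow them), and it was taken at day 1, 4, 7 or 14 (written D1 to D14) from WT mice or from mice lacking Gsdme (KO), 3 libraries per genotype and day. The other 3 came from uninjured WT muscle and are called control. The study describes male C57BL/6J WT mice, a global KO of Gsdme, CTX injected into the gastrocnemius of the hind leg, and control muscle from the opposite leg at 24 h. The ages of these mice are not given in the sources used here. The titles call the mutant KO and the genotype field calls it a knockdown. Gsdme itself was low: its values were from 2.76 to 4.85 TPM in WT and from 1.28 to 2.17 TPM in KO on D1. They did not overlap on D1, D4 or D7, whereas on D14 they were from 1.46 to 2.26 TPM in WT and from 1.27 to 1.96 TPM in KO, with overlap. Which part of the gene the KO lacks was not examined. The control muscle was sequenced in another batch than most of the injured muscle, and which batch the WT D1 libraries belong to is not stated. Injury and batch, or genotype and batch at D1, therefore cannot be told apart. The same holds for day and batch in the WT step from D1 to D4. Nothing in the labels says which libraries came from separate animals, so that the p-values measure the spread between these libraries.

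In a muscle fibre, an action potential enters along the T-tubules and moves the voltage sensor CaV1.1 (Cacna1s). The sensor opens the ryanodine receptor (Ryr1) of the neighbouring sarcoplasmic reticulum, and the calcium that leaves it starts contraction. Junctophilin (Jph1) and triadin (Trdn) hold this junction together, calsequestrins (Casq1, Casq2) store calcium inside the reticulum, parvalbumin (Pvalb) binds it in the cytosol, and the SERCA pumps (Atp2a1 in fast fibres, Atp2a2 in slow fibres and heart) carry it back, held in check by sarcolipin (Sln).

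Values are TPM, a share of all transcripts in which reads are divided by gene length, so that levels of different genes can be set side by side. In control muscle the cytosolic buffer and the fast pump stood far above the others. Pvalb was at 14483 ± 1757 TPM (SD, n = 3, as for all values given in this form), Atp2a1 at 10042 ± 1520 TPM and Casq1 at 2665 ± 209 TPM. The release channel Ryr1 at 297 ± 55.8 TPM and the voltage sensor Cacna1s at 287 ± 22.2 TPM overlapped. Below them came Trdn at 162 ± 51.6 TPM, Atp2a2 at 96.8 ± 51.9 TPM and Jph1 at 76.4 ± 12.3 TPM, of which Atp2a2 overlapped with both of its neighbours in this order. The lowest were Casq2 at 15.9 ± 6.37 TPM and Sln at 7.35 ± 2.82 TPM, which also overlapped. Pvalb, Atp2a1 and Casq1 did not overlap with the next gene in the order.

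**Figure D1:**
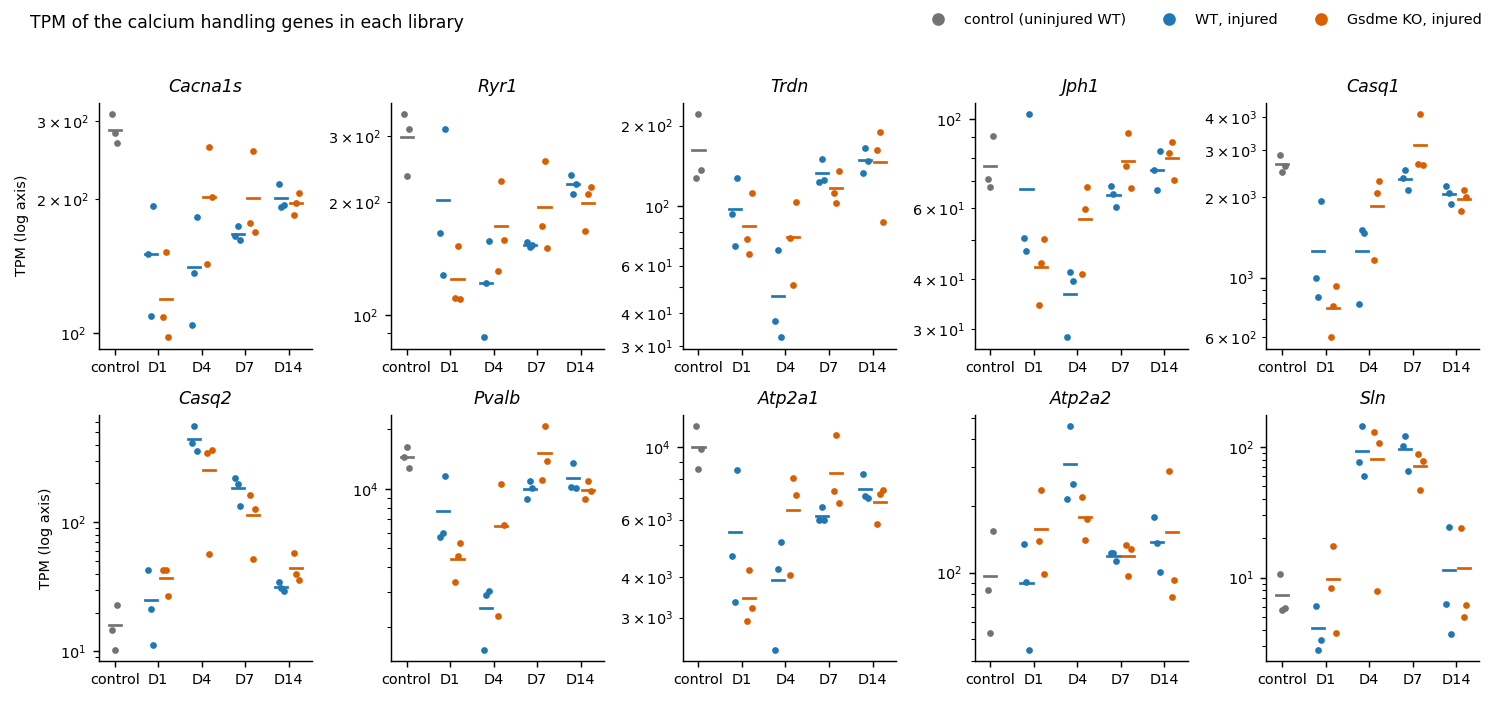
TPM of each of the 10 genes (log axis) in every library, for uninjured WT control muscle and for WT and Gsdme KO muscle on D1, D4, D7 and D14 after CTX; points are libraries and short lines are means of 3. Casq2, Sln and, in WT, Atp2a2 peaked on D4 or D7, whereas the other 7 genes were lowest on D1 or D4, and KO D4 replicate 2 lay far below its group for Casq2 (56.9 TPM) and Sln (7.91 TPM).

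The control libraries carried the markers of fast muscle. The 9 fast fibre markers (Acta1, Ckm, Myh4 and others) summed to between 171136 and 185968 TPM in them. The 6 slow fibre markers summed to between 1086 and 3158 TPM. The 5 genes listed for heart summed to between 14.8 and 17.1 TPM. Of these 5, only 1 reached a mean of 1 TPM, and Myl7 was listed at 0 in every control library. Read depth is unknown, because TPM holds no read number. Between 11785 and 14704 genes reached 1 TPM in a library, and the share of TPM in the top 50 genes ran from 25.4% to 61.4%. In bulk muscle, fewer fibres and less RNA per fibre cannot be told apart.

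Some libraries stood apart from their group. WT D1 replicate 3 had 10 structural fibre genes at a geometric mean of 9479 TPM in the control table, against 5547 and 4691 TPM in the other two and 8851 to 9311 TPM in control muscle. KO D4 replicate 2 had the 6 markers of regenerating fibres and myoblasts (Myh3, Myh8, Myog, Myod1, Myf5 and Mymk) at 46.9 TPM in sum, against 827 and 908 TPM. KO D7 replicate 2 had them at 85.2 TPM against 241 and 190 TPM. The calls and the single-day genotype differences below are also given without these libraries where they move.

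Other cell types moved with the time course. The 5 leukocyte markers (Ptprc, Itgam, Csf1r, Adgre1 and Cd68) summed to between 27.2 and 33.0 TPM in control, between 200 and 809 TPM in WT D1, between 349 and 854 TPM in WT D4 and between 22.5 and 69.3 TPM in WT D14. The 4 markers of fibro-adipogenic progenitors, the stromal cells of muscle, summed to between 764 and 992 TPM in control and between 6074 and 6931 TPM in WT D4. In the KO the leukocyte sums were between 514 and 747 TPM on D1 and between 64.2 and 416 TPM on D4, the lowest being replicate 2. The part of these cells in the results below was not tested.

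Members were compared with limma on log2(TPM + 1), and a gene is called where its p, adjusted by Benjamini-Hochberg over all genes tested, was under 0.05. All differences are in these log2 units, in which the change of a gene of low TPM comes out too small. On D1 against control, within the table that holds both, 5 of 10 members fell and 0 rose, whereas 5.64% of the 13041 genes tested fell and 55.4% rose. The fallers were Casq1, Atp2a1, Pvalb, Trdn and Cacna1s, and in each of them all 3 WT D1 libraries lay below all 3 control libraries, an ordering that 7.03% of all genes shared. Since the median gene lay 0.66 above control, the same 5 were from -1.84 to -1.56 when measured from that median. Under median-of-ratios scaling, which moves that median to 0.00, 49.6% of all calls were higher on D1, under quantile normalization 48.9%, and as deposited 90.8%. Without WT D1 replicate 3, 7 members fell and 1, Casq2, rose. Without WT D1 replicate 2 or control replicate 2 only Cacna1s and Casq1 were called, and without WT D1 replicate 1, control replicate 1 or control replicate 3 there were 3 calls each.

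In WT muscle from D1 to D4, 3 members rose, beside 14.6% of the 15718 genes tested, and 3 fell, beside 5.27%. Casq2, Sln and Atp2a2 rose by 1.65 to 4.08 above the median gene, and Pvalb, Trdn and Jph1 were from -1.80 to -0.95 against it. From D4 to D7, 3 members (Pvalb, Trdn and Jph1) rose, beside 3.04% of all genes, and 0 fell, beside 9.31%. From D7 to D14, Casq2 and Sln fell, which is 2 of 10 members where 30.9% of all genes fell, and 0 rose, beside 0.923%. Pvalb, Trdn and Jph1 are named in both of the first steps, which share the D4 libraries. Over all genes, 22.1% had every D4 library above every D1 library, and 7.39% had every D4 library below. From D4 to D7 these shares were 9.52% and 33.2%, and from D7 to D14 4.58% and 58.9%. Of all calls, 73.5% were higher from D1 to D4, 24.6% from D4 to D7 and 2.90% from D7 to D14. With median-of-ratios scaling these shares were 48.0%, 53.1% and 36.6%, and with quantile normalization 51.1%, 53.6% and 41.8%. Without WT D1 replicate 3, only Casq2 and Sln were called from D1 to D4, and without WT D4 replicate 1 only Casq2, Atp2a2 and Sln. Without WT D4 replicate 1, only Trdn was called from D4 to D7, and without WT D14 replicate 3 no member was called from D7 to D14, while Casq2 alone was called without WT D7 replicate 1.

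In KO muscle from D1 to D4, 4 members (Casq2, Sln, Casq1 and Cacna1s) rose, beside 7.18% of all genes, and 0 fell, beside 12.2%. Over all genes, 10.9% had every D4 library above every D1 library in this step, and 19.8% had every D4 library below. From D4 to D7 no member was called, and 0% of all genes were. From D7 to D14 no member was called either, beside 0.0827% of genes that rose and 0.477% that fell. Of the calls of that step 14.8% were higher, and 30.6% with median-of-ratios scaling and 37.1% with quantile normalization. At an unadjusted p under 0.05 these 2 later steps held Pvalb (1.44, SE 0.42, adjusted p = 0.260) and Casq1 (0.79, SE 0.31, adjusted p = 0.420) as higher on D7, and Sln (-2.76, SE 0.82, adjusted p = 0.121) and Casq2 (-1.23, SE 0.56, adjusted p = 0.242) as lower on D14. Without KO D4 replicate 2, Pvalb rose and Casq2 fell from D4 to D7, where 0.668% of all genes rose and 8.08% fell. With the 3 libraries that stood apart left out together, Casq2 and Sln also fell from D7 to D14, where 18.0% of all genes fell. The first step lost calls too: without KO D1 replicate 1 or KO D4 replicate 3 only Casq2 was called, without KO D1 replicate 3 only Casq1 and Casq2, and without KO D4 replicate 2 Cacna1s was lost.

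**Figure D2:**
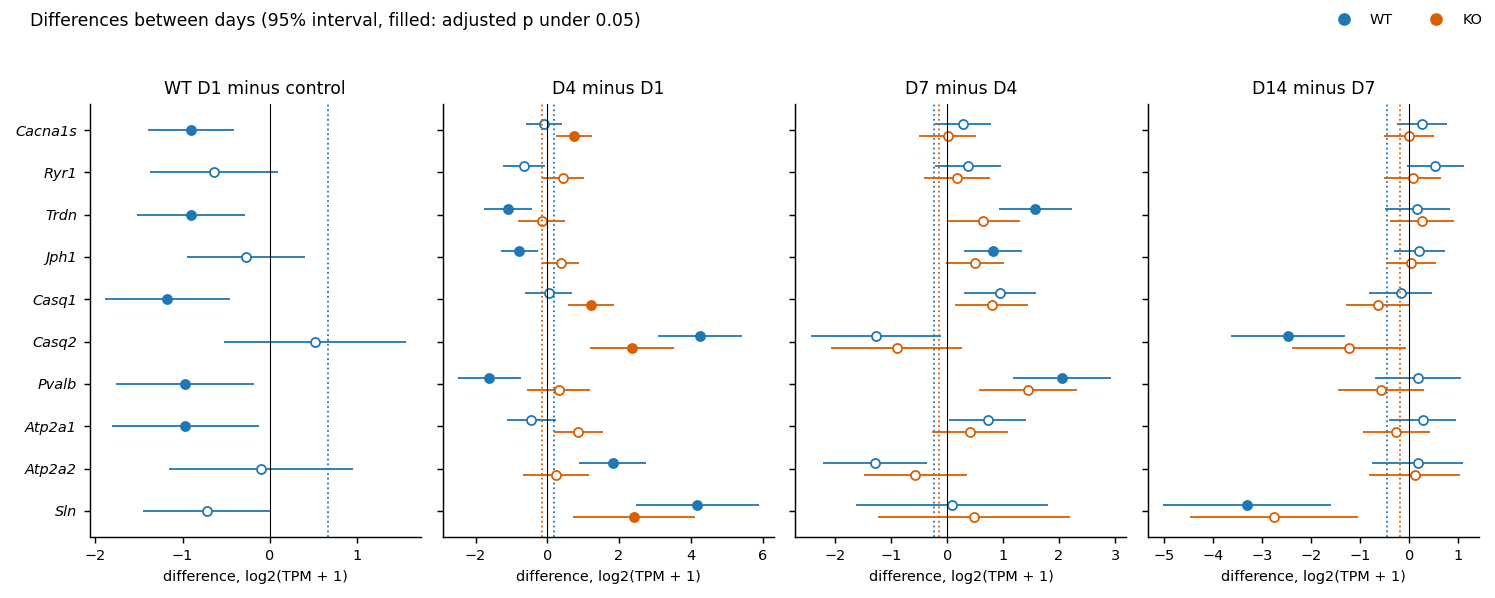
Differences in log2(TPM + 1) of the 10 genes between WT D1 and control and between neighbouring days, in WT and KO; bars are 95% intervals, filled points have an adjusted p under 0.05, and dotted lines are the median of all genes tested. From D1 to D4, Casq2 rose by 4.26 in WT and 2.37 in KO and Sln by 4.18 and 2.42, and in WT Pvalb lay at -1.62 for this step and at 2.06 for the next.

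All 20 calls of these steps kept their direction under median-of-ratios scaling, where 19 were still called, and under quantile normalization, where 17 were. The call lost under both was the rise of Cacna1s in KO from D1 to D4.

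In the fit used for the calls above, the voltage sensor fell on D1 and no step was called for the release channel. Cacna1s (chr1:136052750-136119822, GRCm38, plus strand) was at 311, 282 and 268 TPM in control and at 159, 115 and 197 TPM in WT D1 in the same table. The groups did not overlap, and the gene fell by 0.90 (SE 0.21, adjusted p = 0.00814). Set beside control across the tables, every library of the 8 injured groups was lower, with group means from 120 TPM in KO D1 to 202 TPM in KO D4. This is a description, since the share of all genes with that ordering was not counted. Cacna1s rose in KO from D1 to D4 (0.74, SE 0.24, adjusted p = 0.0399), with 143, 262 and 202 TPM against 109, 153 and 98.0 TPM on D1. These KO libraries overlapped. The call held in only 5 of 15 alternatives. It was lost under median-of-ratios scaling (adjusted p = 0.0755), under quantile normalization (adjusted p = 0.0581) and with library quality weights (adjusted p = 0.152).

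Ryr1 (chr7:29003344-29125179, minus strand) was at 343, 235 and 313 TPM in control and at 165, 128 and 314 TPM in WT D1. Replicate 3 of WT D1 was the one at control level, and the difference was not called (-0.64, SE 0.32, adjusted p = 0.113). It was called lower without that replicate and with the replicate number as a block (adjusted p = 0.0438). Median-of-ratios scaling and library quality weights also gave the call, and quantile normalization did not. No step between days was called for Ryr1 in WT or KO: its means were 202, 122, 154 and 224 TPM in WT and 125, 172, 194 and 199 TPM in KO from D1 to D14. In WT, all 3 D14 libraries (210 to 237 TPM) lay above all 3 D7 libraries (152 to 157 TPM), an ordering that 4.58% of all genes shared.

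The junction proteins had their low point on D4 in WT. Trdn (chr10:33080554-33476709, plus strand) was at 37.3, 68.8 and 32.4 TPM in WT D4, against 93.5, 70.9 and 128 TPM on D1 and 123, 151 and 125 TPM on D7. The D4 libraries lay below all libraries of both other days. Trdn fell by 1.10 (SE 0.31, adjusted p = 0.0181) and then rose by 1.58 (SE 0.31, adjusted p = 0.00776). In KO it was at 76.4, 50.8 and 104 TPM on D4 and overlapped with D1, at 75.7, 66.2 and 112 TPM. Trdn was also lower in WT D1 than in control (-0.90, SE 0.27, adjusted p = 0.0202). The same WT D1 libraries were from 11.9% to 15.5% higher for Trdn in the injured table than in the control table, a gap of at most 5.15% for any other member. The fall from D1 to D4 was not called without WT D1 replicate 3, WT D4 replicate 1 or WT D4 replicate 3, and Trdn overlaps other annotated genes on both strands.

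Jph1 (chr1:16964560-17097889, minus strand) was at 28.6, 41.7 and 39.5 TPM in WT D4, below the 46.9 to 103 TPM of D1 and the 60.2 to 68.2 TPM of D7. It fell by 0.77 (SE 0.25, adjusted p = 0.0312) and rose by 0.82 (SE 0.25, adjusted p = 0.0384). Both calls were sensitive to single libraries: the first was lost without WT D1 replicate 3 and without WT D4 replicate 1, and the second without any of 5 of the 6 libraries of its step. In KO the levels were 34.4, 43.7 and 50.2 TPM on D1 and 41.2, 59.7 and 67.8 TPM on D4, with overlap and no call.

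The calsequestrins, the calcium stores of the reticulum, took different courses in WT. Casq1 (chr1:172209894-172219868, minus strand), the form of fast fibres, fell on D1, and Casq2 (chr3:102086415-102146514, plus strand), known from slow fibres and heart, rose to D4. In KO both rose from D1 to D4. Their promoters are shown because these paralogs differed in WT: each is the 250 bases before the annotated start, 5′ to 3′ along the gene, from RefSeq on GRCm38.p6. Capitals mark matches to the E-box letters CANNTG, the kind of sequence that myogenic factors such as MyoD bind, read on both strands since the letters are the same on each.
Casq1, chr1:172219896-172220145, minus strand: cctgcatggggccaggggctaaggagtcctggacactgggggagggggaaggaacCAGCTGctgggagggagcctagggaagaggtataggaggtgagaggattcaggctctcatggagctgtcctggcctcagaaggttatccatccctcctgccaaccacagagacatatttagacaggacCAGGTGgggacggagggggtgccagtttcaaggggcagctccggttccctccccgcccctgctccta
Casq2, chr3:102086165-102086414, plus strand: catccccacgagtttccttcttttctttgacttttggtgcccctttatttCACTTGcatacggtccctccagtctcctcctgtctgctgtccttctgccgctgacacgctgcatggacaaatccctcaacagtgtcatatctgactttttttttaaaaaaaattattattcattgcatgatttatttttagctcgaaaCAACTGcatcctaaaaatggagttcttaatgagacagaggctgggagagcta

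Both windows hold 2 E-box matches, and 66.2% of the 32851 promoters of this length in the table hold at least 1. Of the members, 6 were matched in that table. Cacna1s has 2 matches, Atp2a1 has 1, Ryr1 has 0, and Pvalb has 0 at one of its annotated starts and 1 at the other. None of these windows holds the letter pattern searched for the MEF2 motif, which 3.20% of promoters hold. None holds the TATA letters TATAAA, which 12.4% hold. Wider forms of the MEF2 motif were not searched, so that these windows may hold them. A match is a run of letters and not a measured binding site, and Trdn, Jph1, Atp2a2 and Sln were not matched.

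Casq1 was at 2892, 2481 and 2623 TPM in control and at 995, 847 and 1936 TPM in WT D1. The groups did not overlap, and Casq1 fell by 1.18 (SE 0.31, adjusted p = 0.0127), the lowest difference of the 10 members in that comparison. In WT D4 it was at 794, 1515 and 1471 TPM, and in WT D7 all 3 libraries were higher, at 2355, 2523 and 2128 TPM, with a difference that was not called (0.95, SE 0.31, adjusted p = 0.0509). In KO the D1 libraries at 597, 786 and 934 TPM lay below all D4 libraries at 1163, 2079 and 2307 TPM. This ordering was shared by 10.9% of all genes. Casq1 rose by 1.22 (SE 0.31, adjusted p = 0.0114), a call lost without KO D1 replicate 1 or KO D4 replicate 3. KO D7 replicate 2 held the highest level of the series, 4115 TPM, against 2667 and 2650 TPM in the other two.

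Casq2 was at 14.6, 10.3 and 22.9 TPM in control and at 43.4, 21.5 and 11.3 TPM in WT D1 of the same table, with overlap (0.51, SE 0.45, adjusted p = 0.343). On D4 it was at 415, 556 and 359 TPM in WT, above every D1 library by a wide gap, and it rose by 4.26 (SE 0.56, adjusted p = 7.48e-05). It was at 221, 196 and 133 TPM on D7, a step that was not called (-1.28, SE 0.56, adjusted p = 0.119). On D14 it was at 34.4, 30.8 and 29.4 TPM, when it fell by 2.47 (SE 0.56, adjusted p = 0.00806). In KO it was at 42.4, 42.7 and 26.9 TPM on D1 and at 341, 56.9 and 364 TPM on D4, when it rose by 2.37 (SE 0.56, adjusted p = 0.00767). Replicate 2 of KO D4 was above the D1 libraries but far below its own group, and without it the rise was 3.24. The rises of both genotypes stayed called without any single library. The markers of regenerating fibres were also higher in WT D4 than in control. They summed to between 1120 and 1605 TPM in WT D4 and between 25.6 and 26.6 TPM in control. In 4 of 9 groups the library with their highest sum was also the library with the highest Casq2. Markers of smooth muscle and fibro-adipogenic progenitors rose from D1 to D4 in WT as well. The part of any of these cells in the rise of Casq2 was not tested. The sum of 5 genes listed for heart (Myh6, Nppa, Myl7, Myl4 and Tnni3) was between 1681 and 1992 TPM in WT D4. Only 3 of these 5 reached a mean of 1 TPM there and Myl7 was listed at 0, so that the sum does not stand for the list as a whole.

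Parvalbumin, the calcium buffer of fast fibres (Pvalb, chr15:78191114-78206400, minus strand), fell on D1, fell again to D4 and rose to D7 in WT. Its level was 14550, 16205 and 12693 TPM in control and 5738, 5970 and 11546 TPM in WT D1, without overlap, and it fell by 0.97 (SE 0.35, adjusted p = 0.0382). This call was lost without any library of the comparison but WT D1 replicate 3, with no filter on low values and under quantile normalization (-0.38, adjusted p = 0.341). In WT D4 it was at 1538, 2900 and 3030 TPM, below every other injured WT library, and the fall from D1 was 1.62 (SE 0.42, adjusted p = 0.00980). It then rose by 2.06 (SE 0.42, adjusted p = 0.00843) to 8915, 10897 and 10063 TPM on D7, and was at 10167, 13564 and 10103 TPM on D14, with overlap. The call from D1 to D4 was lost without WT D1 replicate 3 or without WT D4 replicate 1, and the call from D4 to D7 without WT D4 replicate 1. In KO the 3 D4 libraries were spread widely, at 2280, 10517 and 6583 TPM, and overlapped with D1 at 3393, 4552 and 5304 TPM. On D7 they were at 11024, 20752 and 13823 TPM, above all KO D4 libraries, an ordering that 2.43% of all genes shared in that step.

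The pumps took unlike courses. Atp2a1 (chr7:126445858-126463108, minus strand), the fast SERCA1, was at 11623, 8591 and 9913 TPM in control and at 4636, 3357 and 8521 TPM in WT D1. The groups did not overlap, though replicate 3 came close, and it fell by 0.97 (SE 0.37, adjusted p = 0.0489), a call lost without any library of the comparison but WT D1 replicate 3. In WT it was at 2391, 4239 and 5116 TPM on D4 and at 5993, 6543 and 5964 TPM on D7, where all libraries were higher (0.72, SE 0.33, adjusted p = 0.129). In KO it was at 2918, 4203 and 3217 TPM on D1 and at 4057, 8066 and 7162 TPM on D4 (0.86, SE 0.33, adjusted p = 0.0689). Atp2a1 overlaps Rabep2 on the other strand.

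Atp2a2 (chr5:122453513-122502225, minus strand), the slow SERCA2, was at 83.2, 53.1 and 154 TPM in control and at 135, 90.2 and 45.0 TPM in WT D1, with overlap. In WT D4 it was at 214, 459 and 252 TPM, above all D1 libraries, and it rose by 1.82 (SE 0.44, adjusted p = 0.00663), a call lost without WT D1 replicate 3. It was back at 122, 122 and 113 TPM on D7 (-1.29, SE 0.44, adjusted p = 0.0608), below all D4 libraries. Of all genes, 33.2% had this ordering. The KO libraries of D1 were at 139, 236 and 98.7 TPM and overlapped with those of D4 at 218, 140 and 175 TPM. The slow fibre markers Myh7, Tnni1, Tnnt1, Myl2, Myl3 and Tnnc1 were summed in each library. In 6 of 9 groups the library with the highest sum was also the library with the highest Atp2a2. In KO D14, for example, replicate 1 had 288 TPM of Atp2a2 and 4896 TPM of slow markers, whereas the other two had 77.3 and 92.6 TPM and 1111 and 1458 TPM. In WT D1 the slow markers were at 1323, 49.8 and 15.3 TPM, in the order of the replicates, beside 135, 90.4 and 44.9 TPM of Atp2a2 in the same table. KO D4 went the other way: replicate 2 had the highest slow sum, 3294 TPM, and the lowest Atp2a2, 140 TPM. Casq2 shared its highest library with the slow markers in 6 of 9 groups too, and Sln in 4, so that this was not particular to Atp2a2. With 3 libraries in a group some matches come without any link, and such matches were not counted over all genes. Other cell markers also rose from D1 to D4 in WT. The 4 smooth muscle markers summed to between 183 and 230 TPM on D1 and between 550 and 996 TPM on D4. The 4 markers of fibro-adipogenic progenitors went from between 999 and 1718 TPM to between 6074 and 6931 TPM. The part of slow fibres or of other cells in the rise of Atp2a2 was not tested.

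Sarcolipin, the small inhibitor of the pumps (Sln, chr9:53850164-53854560, plus strand), was at 10.6, 5.64 and 5.81 TPM in control and at 6.12, 2.81 and 3.35 TPM in WT D1, with overlap (-0.72, SE 0.32, adjusted p = 0.0796, and adjusted p = 0.0491 with the replicate number as a block). Sln was also called lower under median-of-ratios scaling, under quantile normalization and without WT D1 replicate 1. It was at 77.4, 145 and 59.9 TPM in WT D4 and rose by 4.18 (SE 0.82, adjusted p = 0.00151). On D7 it was at 101, 121 and 65.8 TPM (0.09, SE 0.82, adjusted p = 0.953). It fell by 3.30 (SE 0.82, adjusted p = 0.0107) to 6.33, 24.3 and 3.70 TPM on D14. In KO it was at 8.34, 17.4 and 3.78 TPM on D1 and at 129, 7.91 and 107 TPM on D4, with overlap through replicate 2, and rose by 2.42 (SE 0.82, adjusted p = 0.0448). Without that replicate the rise was 3.66 (adjusted p = 0.00123), and the call was lost without KO D1 replicate 1, KO D1 replicate 3, KO D4 replicate 1 or KO D4 replicate 3. KO D7 libraries were at 88.3, 46.6 and 78.0 TPM, all above the KO D14 libraries at 24.2, 4.97 and 6.14 TPM. This ordering was shared by 25.7% of all genes.

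The level on D14 was set beside control as a description only, because the 2 tables were quantified separately. In WT D14 the means of the 7 genes that were lowest early were from 70.1% of control (Cacna1s) to 97.9% (Jph1), and in KO D14 from 67.0% (Ryr1) to 105% (Jph1). Cacna1s, Casq1 and Atp2a1 had every D14 library of both genotypes below every control library. Casq2 stood at 198% of control in WT and 277% in KO, with the lowest D14 library at 29.4 TPM above the highest control library at 22.9 TPM. Sln and Atp2a2 overlapped with control in both genotypes. How many of all genes were ordered in these ways against control was not counted, so that the orderings stand as values only.

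No member was called between KO and WT on any day. On each day 0 of 10 were called, beside 0.00636% of all genes on D1, which is 1 gene, and 0% on D4, D7 and D14. The difference averaged over days was called for 0 members and 0.00636% of genes, and the test of whether the difference changed between days for 0 members and 0% of genes. The averages ran from -0.20 (SE 0.28) for Casq2 to 0.20 (SE 0.21) for Pvalb, with 95% intervals from -0.79 to 0.38 and from -0.24 to 0.64. On single days the intervals were wider: on D4 that of Pvalb reached from 0.30 to 2.06 and that of Sln from -2.54 to 0.89.

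The day with the most differences at an unadjusted p under 0.05 was D4, with 6 members, each with an adjusted p from 0.212 to 0.218, and 22.7% of all genes were under that p on D4 against 5.38% on D1, 3.06% on D7 and 2.06% on D14. Pvalb (1.18, SE 0.42), Trdn (0.74, SE 0.31), Atp2a1 (0.73, SE 0.33), Jph1 (0.60, SE 0.25) and Cacna1s (0.51, SE 0.24) were higher in KO, and Casq2 (-1.17, SE 0.56) was lower, where the median gene lay at -0.28. For each of the 6, KO and WT libraries overlapped. Without KO D4 replicate 2 the values were 0.70 for Pvalb, 1.01 for Trdn, 0.53 for Atp2a1, 0.54 for Jph1, 0.31 for Cacna1s and -0.30 for Casq2. With library quality weights they were -0.05 for Pvalb, 0.09 for Trdn, 0.07 for Atp2a1, 0.06 for Jph1, 0.18 for Cacna1s and -1.04 for Casq2, and without KO D4 replicate 1 Pvalb was called at 1.80 (adjusted p = 0.0489). On D1, Ryr1 (-0.60, SE 0.28) and Jph1 (-0.55, SE 0.25) were lower in KO at an unadjusted p under 0.05 (adjusted p = 0.873 for each), and no member was on D7 or D14.

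A few members separated the genotypes without a call. On D1 all KO libraries of Pvalb (3393 to 5304 TPM) lay below all WT libraries (5732 to 11535 TPM), and 3.38% of all genes were ordered in this way. On D7 Pvalb, Casq1 and Atp2a1 had all KO libraries above all WT libraries, an ordering that 1.85% of genes shared, and on D14 only Casq2 did, among 7.37% of genes. The summed fast fibre markers were ordered in the same way on D7, from 133997 to 205523 TPM in KO and from 116636 to 129404 TPM in WT, and their part in the result was not tested. Pvalb on D7 was at 11024 to 20752 TPM in KO and 8915 to 10897 TPM in WT, so that it lay on opposite sides on D1 and D7.

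**Figure D3:**
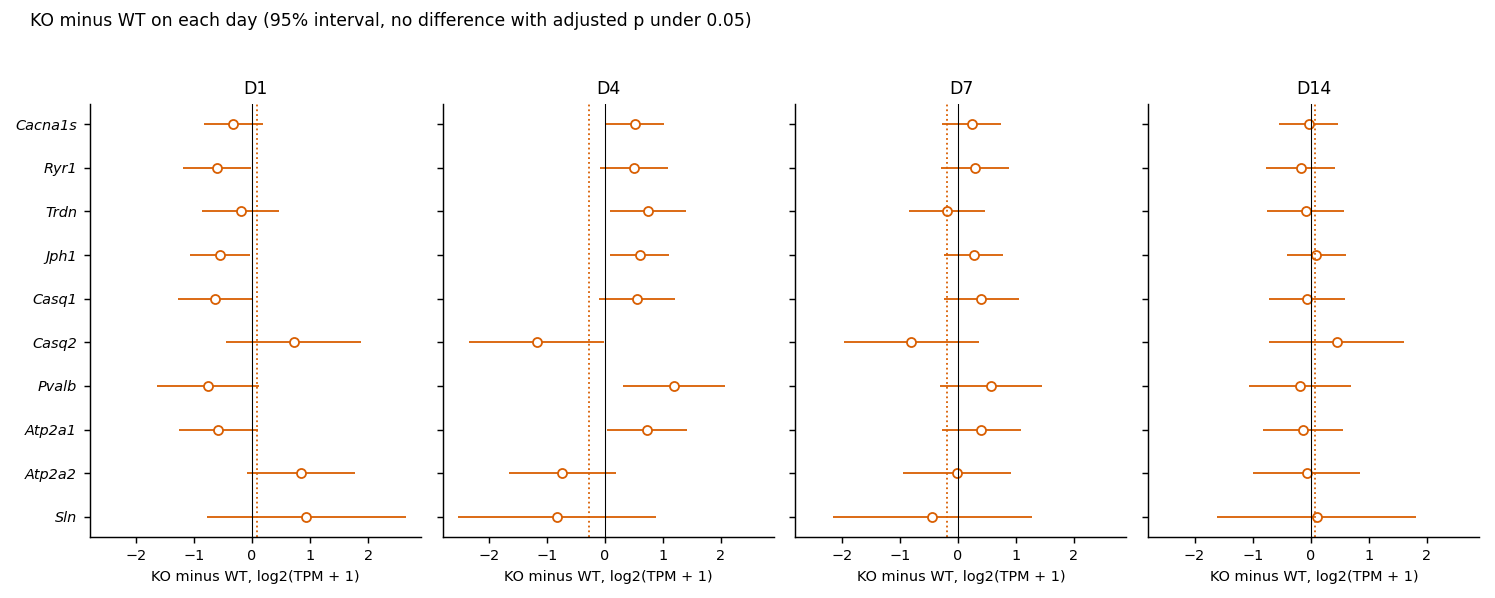
KO minus WT in log2(TPM + 1) for the 10 genes on D1, D4, D7 and D14, with 95% intervals and the median of all genes tested as a dotted line; none has an adjusted p under 0.05. On D4 Pvalb stood at 1.18 and Casq2 at -1.17, and on D14 the 10 values lay between -0.19 and 0.45.

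Ratios of TPM + 1 were taken between members of a library, which for genes at a few TPM differ from ratios of TPM. The 5 ratios were compared between neighbouring days by an exact two-sided permutation of day within genotype, for which 0.005 is the smallest p possible, with an adjustment over the 15 tests. Casq1/Casq2 had a median of 186 in control, 2.72 in WT D4, 12.8 in WT D7 and 62.3 in WT D14. Over both genotypes its log2 value fell by 2.68 from D1 to D4 (exact p = 0.02, adjusted 0.0341), rose by 1.96 to D7 (exact p = 0.015, adjusted 0.0341) and rose by 1.44 to D14 (exact p = 0.025, adjusted 0.0341). The direction held in WT and KO at each of these steps, with -4.22 and -1.14 at the first.

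Sln against the sum of the pumps rose by 3.06 from D1 to D4 (exact p = 0.02, adjusted 0.0341), did not pass from D4 to D7 (-0.23, exact p = 0.78) and fell by 3.04 from D7 to D14 (exact p = 0.005, adjusted 0.025). As a ratio of TPM + 1 its WT median was 0.00110 at D1 and 0.0301 at D4, and it was 0.0168 at D7 and 0.000867 at D14. Atp2a1/Atp2a2 had a median of 138 in control and 11.1 in WT D4 and rose by 1.49 from D4 to D7 (exact p = 0.015, adjusted 0.0341). From D1 to D4 it was at -2.27 in WT and 0.62 in KO, and the pooled step did not pass (-0.83, exact p = 0.275).

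Pvalb/Atp2a1 fell by 0.86 from D1 to D4 (exact p = 0.015, adjusted 0.0341) and rose by 1.19 to D7 (exact p = 0.005, adjusted 0.025). Its WT median was 1.36 on D1, 0.643 on D4 and 1.67 on D7. Ryr1/Cacna1s moved little in size: it fell by 0.43 from D1 to D4 (exact p = 0.005, adjusted 0.025) and rose by 0.13 to D7 and by 0.17 to D14 (exact p = 0.025 and adjusted 0.0341 at each). Between KO and WT, permuted within days over 160000 assignments, none of the 5 ratios passed: the lowest p was that of Ryr1/Cacna1s (-0.10, exact p = 0.101, adjusted 0.507), and the others had exact p from 0.459 to 0.807. Casq1/Casq2 differed by 1.73 on D4 and -1.35 on D1, and Atp2a1/Atp2a2 by 1.46 and -1.43. Without the 3 libraries that stood apart these were 0.74 and -0.53, and 1.11 and -0.63, and neither day can pass alone, since 0.1 is the smallest p of 3 against 3.

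**Figure D4:**
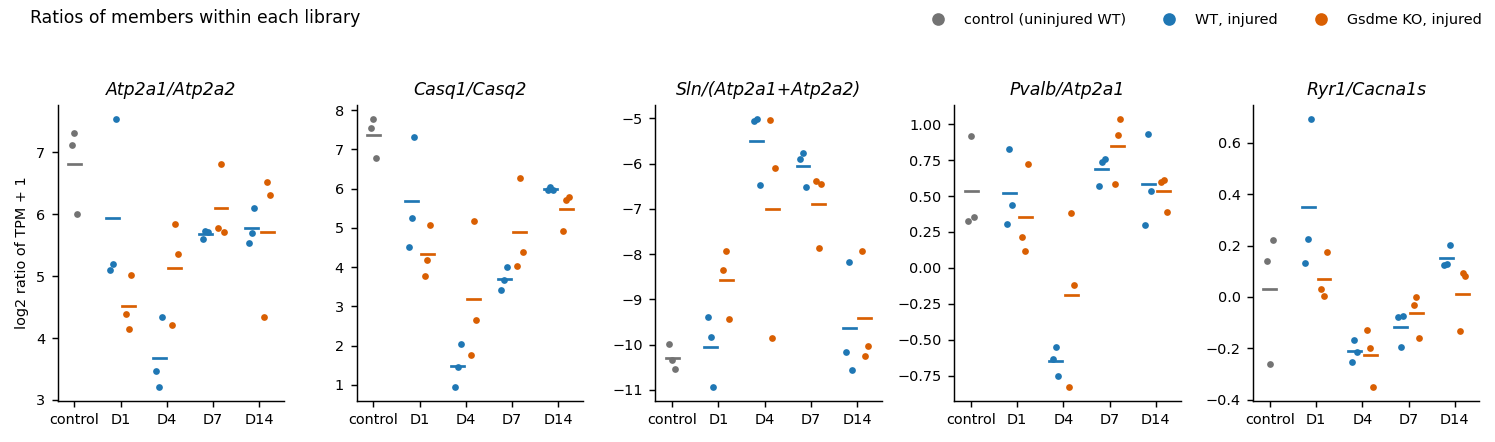
Log2 ratios of TPM + 1 between members in each library, for control, WT and KO muscle; points are libraries and short lines are means of 3. Casq1/Casq2 was lowest and Sln against the summed pumps highest on D4 in WT (means 1.47 and -5.51), and Pvalb/Atp2a1 was below 0 in all 3 WT D4 libraries.

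Members were also set against 10 structural genes of the fibre (Acta1, Ckm, Mylpf, Myl1, Tnnc2, Tnni2, Tnnt3, Actn3, Ttn and Neb), as the difference in log2(TPM + 1) from their mean. Jph1 kept nearly the same distance in all injured groups, with means from -6.66 to -6.43. Casq1 did not: it was at -2.37 ± 0.10 in WT D1 and -2.53 ± 0.12 in KO D1, and from -1.83 to -1.30 in every other group, control included. Casq2 moved from -8.06 ± 1.36 in WT D1 to -3.05 ± 0.53 in WT D4, and Sln from -10.28 ± 0.74 to -5.35 ± 0.71. Pvalb was at 0.26 ± 0.16 in WT D1, -0.60 ± 0.06 in WT D4 and 0.70 ± 0.10 in WT D7, and Cacna1s was higher in WT D4 (-4.71 ± 0.27) than in WT D1 (-5.37 ± 0.21). These steps were not tested. Between KO and WT, permuted within days, none of the 10 differences passed, with exact p from 0.205 (Ryr1, -0.09) to 0.964 (Cacna1s). On D4 this measure differed between the genotypes by -0.07 for Cacna1s, 0.01 for Jph1, 0.14 for Atp2a1, 0.16 for Trdn, 0.60 for Pvalb and -1.76 for Casq2. Without KO D4 replicate 2 these were -0.12, 0.11, 0.10, 0.58, 0.27 and -0.73.

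**Figure D5:**
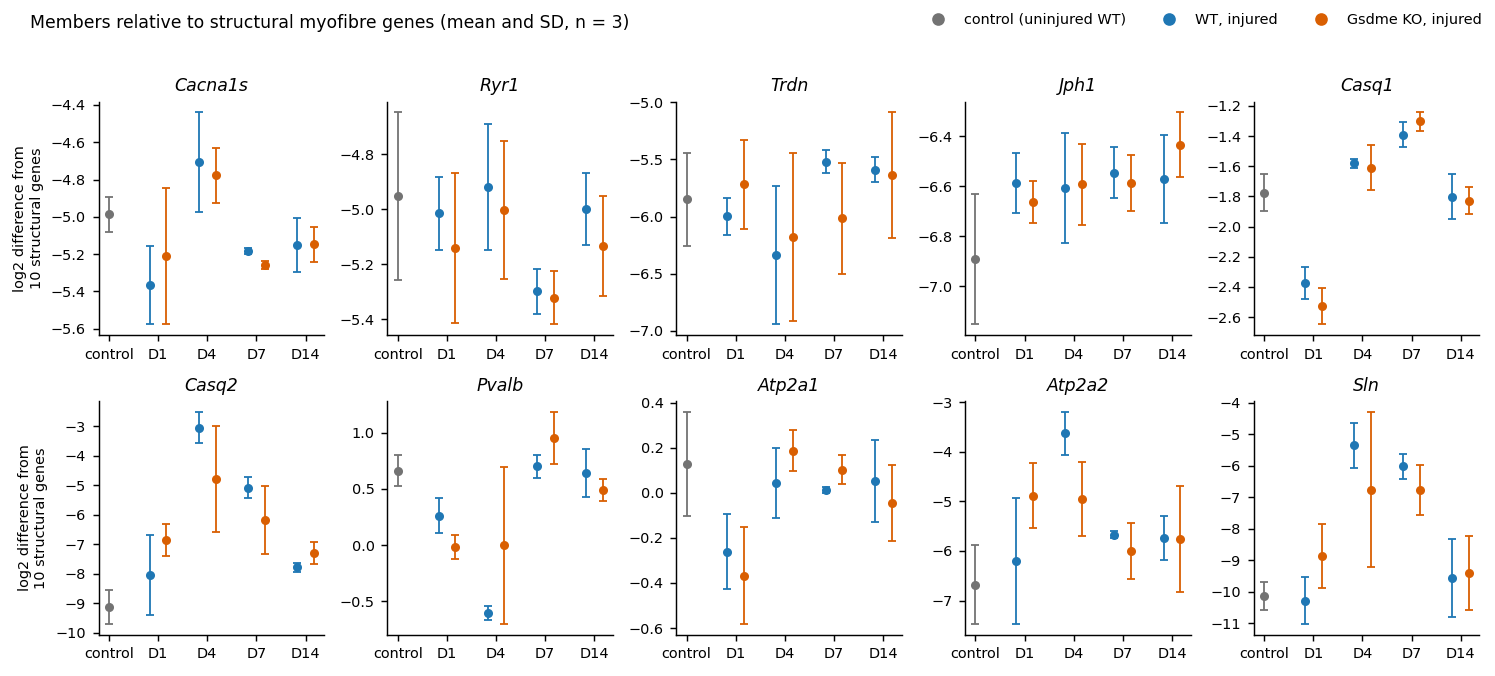
Mean log2(TPM + 1) of each member minus that of 10 structural fibre genes, with SD (n = 3), for control, WT and KO muscle on each day. Jph1 stayed between -6.66 and -6.43 in all injured groups, Casq1 was lowest on D1 (-2.37 in WT and -2.53 in KO), and Casq2 and Sln rose toward the structural genes on D4 in WT (-3.05 and -5.35).

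A wider list of 56 calcium genes, grouped by role, gives the setting of the members. Of these, 52 were tested in the injured table and 51 in the control table. On D1 against control, 19 rose and 6 fell, with a median of 0.39 beside 0.66 over all genes, of which 55.4% rose and 5.64% fell. Mcub, an inhibitory subunit of the mitochondrial uniporter (2.67, SE 0.42, adjusted p = 0.00236), Tmem38b, a potassium channel of the reticulum (2.25, SE 0.19), and Calr, the calcium buffer calreticulin of the endoplasmic reticulum (1.80, SE 0.25), rose, whereas Mrln, a micropeptide inhibitor of SERCA in fibres (-2.22, SE 0.47, adjusted p = 0.00524), S100a1, a calcium sensor of muscle (adjusted p = 0.00154), and Hrc, a calcium-binding protein of the reticulum (-1.10, SE 0.29, adjusted p = 0.0119), fell.

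From D1 to D4 in WT, 7 of the 52 rose and 5 fell, beside 14.6% and 5.27% of all genes. Ryr3, a ryanodine receptor known from immature muscle, rose by 1.43 (SE 0.28, adjusted p = 0.00142) from 0.18 ± 0.11 to 2.24 ± 0.90 TPM, Cav3, the caveolin of muscle, by 0.99 (SE 0.19) and Srl, a reticulum protein that binds calcium, by 0.94 (SE 0.20). Tmem38b (-1.30, SE 0.16), Cacna2d1, the partner subunit of the voltage sensor (-0.81, SE 0.19), and Micu3, a regulator of mitochondrial uptake (-0.80, SE 0.22), fell. From D4 to D7, 2 rose and 7 fell, beside 3.04% and 9.31%: Micu3 (1.14, SE 0.22) and Cacna2d1 (0.99, SE 0.19) rose, and the 3 largest falls were in Ryr3 (-1.12, SE 0.28), Cav3 (-0.95, SE 0.19) and Orai3, a calcium entry channel (-0.67, SE 0.17). From D7 to D14 none rose and 15 fell, beside 0.923% and 30.9%, with Orai2 (-1.49), Mcub (-1.46) and Calr (-1.22) in front, while the median over the list was -0.43 and over all genes -0.45.

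In KO from D1 to D4, 10 of the 52 rose and 4 fell, beside 7.18% and 12.2% of all genes. Mrln rose most (2.30, SE 0.35, adjusted p = 0.000402), from 17.6 ± 1.91 to 91.9 ± 18.0 TPM, followed by Hrc (1.45, SE 0.26) and Ryr3 (1.21, SE 0.28), and Calr (-1.30, SE 0.30), Atp2b1, a calcium pump of the plasma membrane (-1.14, SE 0.29), and Tmem38b (-0.93, SE 0.16) fell. None of the list was called in the 2 later steps of KO. Between KO and WT none of the 52 was called on any day, on average or as a difference between days. At an unadjusted p under 0.05 the list held 9 of 52 on D1, beside 5.38% of all genes, and 10 of 52 on D4, beside 22.7%. The former included Mrln (-1.01, SE 0.35, adjusted p = 0.873) and Jph2, the junctophilin that heart also uses (-0.92, SE 0.30, adjusted p = 0.873). The widest differences on D4 were those of Fkbp1b (-0.92), Orai2 (-0.84) and Mcub (-0.83), none under that p. On D7 and D14 the list held 0 such genes.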

How the data were processed

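The authors deposited TPM per gene, with the 24 injured libraries in one file and the control libraries beside WT D1 in another; TPM is a share, so that a gain in abundant genes lowers the others. Per the labels, a SMARTER mRNA kit and paired-end Illumina sequencing were used, and the submitters' processing notes name mm10. The aligner, counting tool and use of strand are not given in the sources used here, and 8 of the 10 members overlap another annotated gene. Groups and replicate numbers were taken from sample titles. The members, gene lists and tests were chosen with earlier results of these data known.

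Values were analysed as log2(TPM + 1), for genes with at least 1 TPM in at least 3 libraries, with limma 3.58.1 (R 4.3.3): group means, contrasts and a variance trend, without a replicate block, so that the 8 injured groups shared an estimate of the spread. The method was tested on simulated data. Ratios were tested by exact permutation. Named genes were all members and, of the wider list, the 3 with the largest rise and the 3 with the largest fall among those called, or the 3 with the largest absolute difference where none was, with the 3 genes most correlated with each member and the cell type markers by list; those of Ryr1 are not reported here. Same-numbered replicates correlated above 0.1 for every number in 2 of 11 comparisons, so that the numbers were not taken as pairs. Coordinates are from GENCODE mouse release 21 (GRCm38). Alternatives were another pseudocount, other filters, scalings and weights, a replicate block, fits of the compared groups alone, and leaving out libraries.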

Additional observations from a re-analysis of the deposited data

Results flagged for a closer look

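Pvalb lay on opposite sides in the genotype comparison on 2 days: all 3 KO libraries were below all 3 WT libraries on D1 (-0.76, SE 0.42) and above them on D7 (0.56, SE 0.42), and the difference between these differences was 1.32 on the log2 scale. The limma test of change between the 4 days gave an unadjusted p of 0.021 and an adjusted p of 0.527 for Pvalb, so that the change did not pass. The median gene was at 0.09 on D1 and -0.19 on D7. KO D7 replicate 2, at 20752 TPM, is a library that stands apart, and the other KO D7 libraries, at 11024 and 13823 TPM, were also above all WT libraries of that day. On D1 the highest WT library was replicate 3, at 11535 TPM, which stands apart too, and the other WT libraries, at 5732 and 5963 TPM, were above all KO libraries of that day.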

How the results depend on the processing

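Depth is unknown, and 3 libraries per group limit what can be called. The number of members called moved with the fit. With only the groups compared in the fit, fewer samples give the spread. The number was then 2 for WT D4 minus D1, 4 for WT D14 minus D7 and 0 for KO D4 minus D1. Of the 15718 genes tested, 1163, 7940 and 52 were called in the same fits. With library quality weights the number of members was 9 for WT D7 minus D4 and 1 for KO D7 minus D4. It was 4 for KO D14 minus D7 and 8 for WT D1 minus control. Beside these, 10595, 278 and 7861 of 15718 genes and 10845 of 13041 genes were called. With no filter on low values, more genes are tested. Members called were 2 for KO D4 minus D1 and 1 for WT D1 minus control, beside 2419 of 33258 and 6978 of 27019 genes. With the replicate block 5 members were called for WT D7 minus D4, beside 1913 of 15718 genes. For WT D1 minus control 7 were called, with Ryr1 and Sln added, beside 6952 of 13041 genes. The block left the member counts of the other steps as they were. Control muscle may be the other leg of the WT D1 mice, but nothing ties their numbers, and same-numbered libraries correlated at 0.061, 0.041 and 0.0021, so that they were not taken as pairs. WT D1 replicate 3, KO D4 replicate 2 and KO D7 replicate 2 were also left out together, an alternative chosen after seeing the data. Members called were then 7 for WT D7 minus D4, 2 for KO D7 minus D4 and 2 for KO D14 minus D7. Beside these, 5.89%, 0.611% and 1.34% of all genes rose and 24.5%, 3.77% and 18.0% fell. The cause of these shifts was otherwise not tested.

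Some differences changed sign. Pvalb in KO minus WT on D4 was 1.18 and became -0.047 with weights. Relative to 5 structural genes in place of 10, KO minus WT was -0.0085 for Cacna1s, -0.0036 for Jph1 and -0.0036 for Atp2a1. Without the 3 libraries, Atp2a1/Atp2a2 from D7 to D14 was 0.036, Sln against the pumps in KO minus WT 0.21, and relative to structural genes Cacna1s was -0.039, Trdn 0.12 and Sln 0.21, while Ryr1/Cacna1s from D4 to D7 was 0.12 and no longer passed.

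Leaving out 1 library at a time, the members called ranged from 0 to 1 for KO minus WT on D4, 2 to 7 for WT D4 minus D1, 1 to 3 for WT D7 minus D4, 0 to 2 for WT D14 minus D7, 1 to 4 for KO D4 minus D1, 0 to 2 for KO D7 minus D4 and 2 to 8 for WT D1 minus control. In KO minus WT, Atp2a1/Atp2a2 ranged from -0.0093 to 0.30 and Sln against the pumps from -0.40 to 0.20. From D7 to D14, Atp2a1/Atp2a2 ranged from -0.34 to 0.20, Pvalb/Atp2a1 from -0.29 to -0.14 and Ryr1/Cacna1s from 0.15 to 0.21. From D4 to D7, Sln against the pumps ranged from -0.94 to 0.26 and Ryr1/Cacna1s from 0.10 to 0.15. Relative to structural genes, KO minus WT ranged from -0.035 to 0.056 for Cacna1s, -0.11 to 0.078 for Trdn, -0.016 to 0.040 for Jph1, -0.014 to 0.039 for Atp2a1, -0.27 to 0.023 for Atp2a2 and -0.39 to 0.20 for Sln.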

Other observations

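Pearson's r of log2(TPM + 1) over the 24 injured libraries was taken within and between a pair of sets of members. These sets already differed in their time courses in the same libraries, so that r is no separate support for them. It is given as a description, since libraries of a group share their day and genotype. The 21 pairs among Cacna1s, Ryr1, Trdn, Jph1, Casq1, Pvalb and Atp2a1 had r from 0.30 to 0.94, with a median of 0.78. The 3 pairs among Casq2, Sln and Atp2a2 had r from 0.54 to 0.90, and the 21 pairs between the sets had r from -0.59 to 0.30, with a median of -0.25. The lowest r within the larger set, 0.298, was close to the highest between the sets, 0.296.

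The genes most like 9 of the members over these libraries were named by the same measure. For Cacna1s they were Pdk2 (r = 0.96), Tmem38a and Rtn2, and for Atp2a1 Rtn2 (r = 0.98), Tmem38a and Pygm. For Trdn they were Cacna2d1 (r = 0.92), Micu3 and Ube2g1, and for Jph1 Ttn (r = 0.97), Tnnc2 and Phka1. For Casq1 they were Ak1 (r = 0.95), Hhatl and Slc37a4, and for Pvalb Tpm1 (r = 0.95), Mybpc2 and Myl1. Casq2 stood nearest to Tspan3 (r = 0.97), Msc and Myh3, the embryonic myosin heavy chain, and Sln to Mfap2 (r = 0.94), Mfap4 and Myh3. Atp2a2 stood nearest to Sbk3 (r = 0.84), Tnnt1 and Tnni1, of which the last 2 are troponins of slow fibres.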
